A study of Homo sapiens with 4 samples.

Results

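The Hippo pathway genes described here are 10 genes of 20033 protein-coding genes: YAP1, WWTR1, LATS1, LATS2, TEAD1, TEAD2, TEAD3, TEAD4, AMOT and AMOTL2. They were chosen by name as the core list used here, with earlier results of these data known. The upstream kinases STK3 and STK4 and their partners are counted among further genes at the end. A peak was counted for a gene when its summit lay inside the gene body in hg38. The peaks came from m6A meRIP-seq of OE-19 cells, an established line of adenocarcinoma of the esophagogastric junction (AEG), in which RNA carrying N6-methyladenosine (m6A) is pulled down with an anti-m6A antibody and sequenced. The series held 2 m6A immunoprecipitation (IP) samples and 2 input samples of total RNA, and the 2 IP samples, replicates 1 and 2, each had a peak list. All were OE-19 cells grown in RPMI1640 with fetal bovine serum and antibiotics, and the labels give no treatment, genotype or time point to compare. They therefore stand for 1 cell line, and it is not said there whether the replicates came from separate cultures. The sources differ on the preparation: the labels describe UV fixation and lysis, and the methods of the study describe fragmented RNA. The lists held 24607 and 19318 peaks, of which 30 and 21 had the summit in the body of a Hippo pathway gene. Read numbers were not among the values used, so the depth behind each peak is unknown.

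The Hippo pathway restrains growth through a kinase cascade. The upstream kinases STK3 and STK4 (MST2 and MST1) activate LATS1 and LATS2, which phosphorylate the coactivators YAP (YAP1) and TAZ (WWTR1) and keep them out of the nucleus. Unphosphorylated YAP and TAZ enter the nucleus and bind the TEAD factors on DNA to switch on growth genes, while the angiomotins AMOT and AMOTL2 hold YAP at cell junctions and the cytoskeleton and promote LATS activity. In gastrointestinal epithelium the pathway is known for its part in regeneration and in tumour growth. The modification m6A is placed by a nuclear methyltransferase complex on adenosines, often within GGAC, and is known to be common near stop codons and in long exons.

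For 6 of the 10 genes, an exonic peak was found in both replicates: the coactivator gene YAP1, both kinase genes LATS1 and LATS2, the transcription factor gene TEAD1 and both angiomotin genes. Replicate 1 had exonic peaks in 7 of the 10 genes, where 42.4% of all protein-coding genes had one, and TEAD3 was the additional gene. Replicate 2 had exonic peaks in 6 of them, where 34.1% of all protein-coding genes had one. The share found in both replicates was 60% of the Hippo pathway genes, beside 33.4% of all protein-coding genes and 37.3% of the 13596 protein-coding genes whose summed exon length lay in the range of these genes, 2275 to 10700 bp. The genes were chosen with earlier results of these data known, so these shares describe the chosen genes only. No summit fell in the gene body of WWTR1 or TEAD2 in either list, and TEAD4 had only an intronic summit inside its body. Because RNA abundance was not measured here, an unmethylated transcript and a transcript too scarce to give a peak cannot be told apart.

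**Figure D1:**
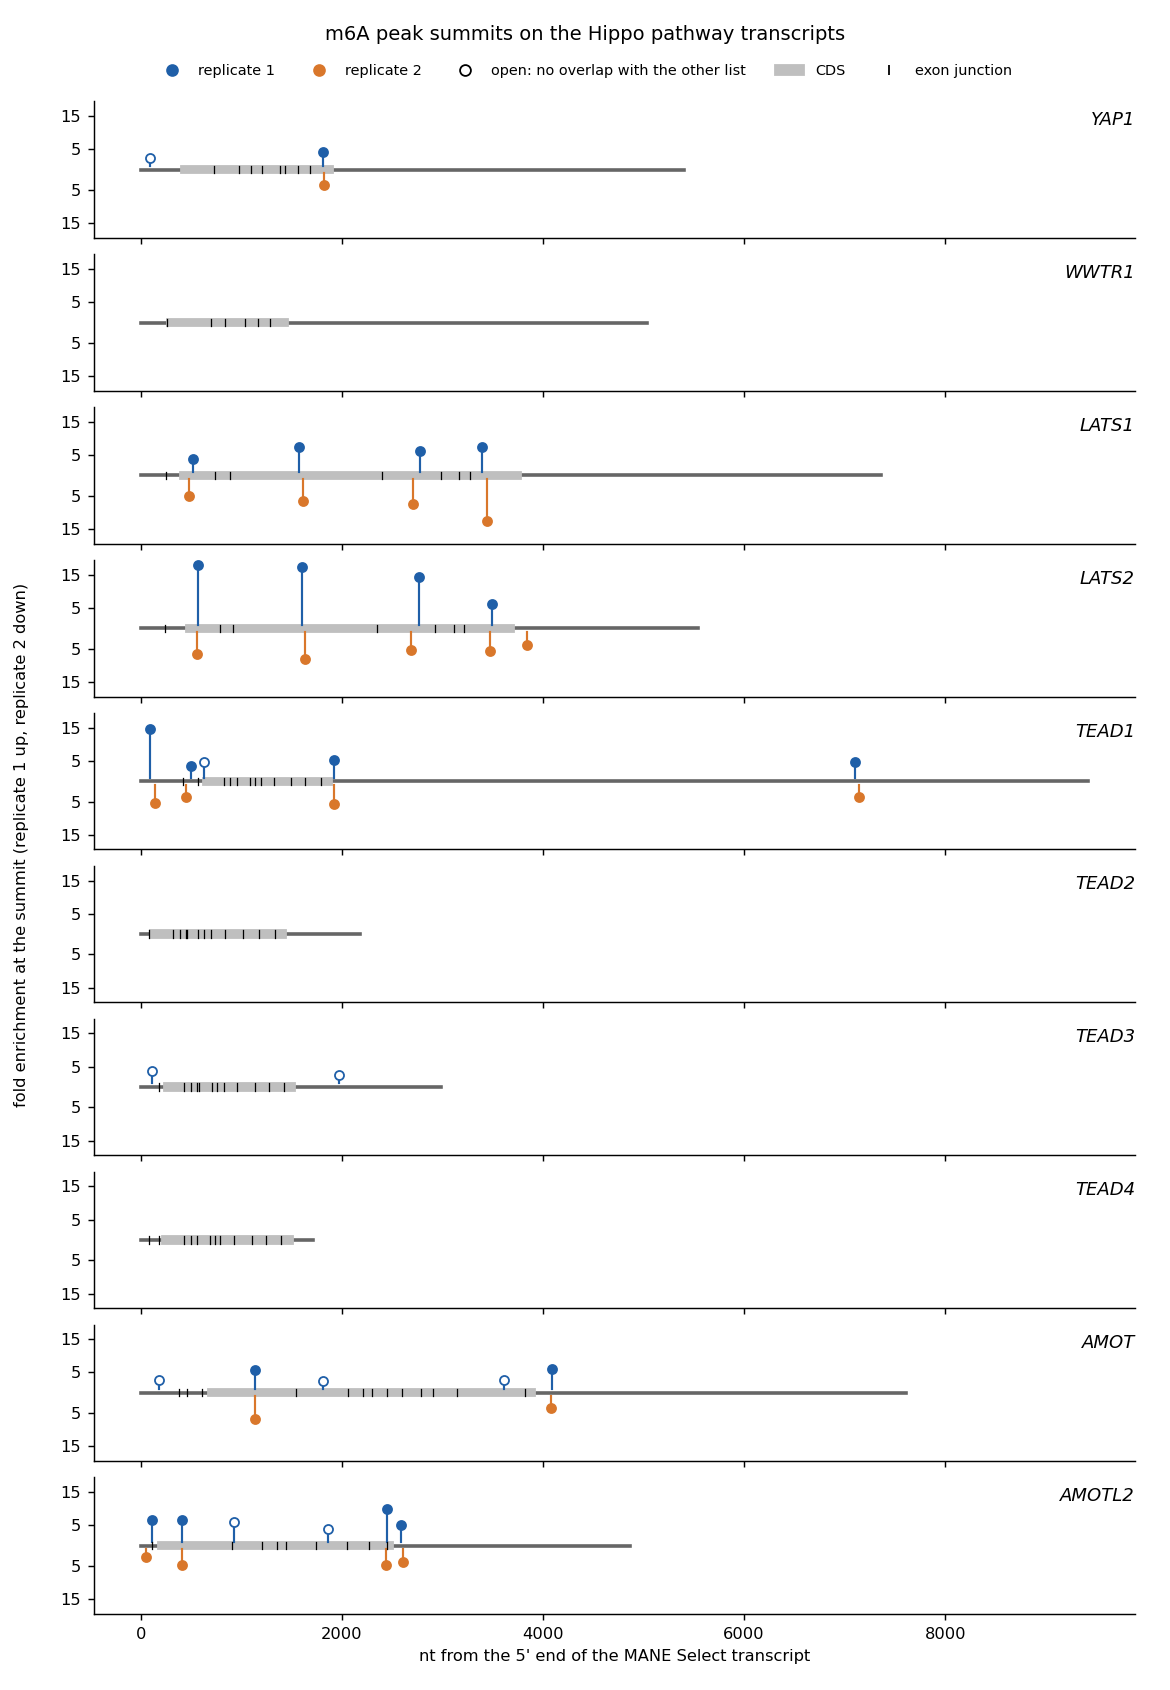
Positions of the exonic summits on the MANE Select transcript of each of the 10 genes, in nt from the 5′ end, with the authors' fold enrichment as stem height (linear scale; replicate 1 upward, replicate 2 downward; open points did not overlap a peak of the other list). LATS1 and LATS2 carried summits in the same 4 exons, while WWTR1, TEAD2 and TEAD4 carried none.

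The genes whose peaks were found in both replicates differed in fold enrichment. RNA abundance and read depth were not known, so these values do not measure the degree of methylation. Fold enrichment is the ratio of the IP signal at the summit to the local background of the peak caller, and the shared exonic peak with the highest geometric mean over the replicates was taken for each gene. For LATS2 this peak had 17.2 in replicate 1 and 8.02 in replicate 2, for LATS1 7.50 and 12.7, and for TEAD1 14.5 and 5.37. These 3 genes stood at percentiles 91.5, 82.0 and 75.1 of the 6613 genes with a shared exonic peak. AMOTL2 followed with 9.99 and 4.67, AMOT with 5.87 and 6.91, and YAP1 with 4.15 and 3.54. AMOTL2 and AMOT were near the middle, at percentiles 53.7 and 47.9, and YAP1 was low, at 14.2. The replicate values of each neighbouring pair in this order overlapped, except that both YAP1 values lay below both AMOT values.

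YAP1 encodes the coactivator that LATS kinases restrain. Its shared peak lay at the end of the coding sequence (CDS) in exon 9, the last exon, which is 3723 nt long. In replicate 1 the peak spanned chr11:102229664-102230181 with its summit 106 nt before the stop codon, and in replicate 2 chr11:102229660-102230137 with its summit 98 nt before it. Fold enrichment was 4.15 and 3.54, at percentiles 29.9 and 21.3 of all peaks of each list. The caller's confidence was much higher than this ratio, with −log10 q of 40.6 and 36.1, at percentiles 90.3 and 89.7. The YAP1 peak was thus a peak of low ratio and high confidence in both lists. It is shown because it is the only shared peak of the gene; the 101 nt around the replicate 1 summit, codons 453 to 486, are given 5′ to 3′ with the single GGAC of the window in capitals.
YAP1 exon 9, hg38 chr11:102229782-102229882, plus strand: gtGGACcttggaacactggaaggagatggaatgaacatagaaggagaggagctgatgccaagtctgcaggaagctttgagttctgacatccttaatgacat

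Replicate 1 had another 2 YAP1 peaks, neither of which overlapped a peak of replicate 2. The first, in the 5′ UTR in exon 1, had its summit 95 nt from the transcript start with a fold enrichment of 2.38 and −log10 q of 9.81. The second was intronic, with a fold enrichment of 2.82 and −log10 q of 2.77. WWTR1, which encodes the YAP paralogue TAZ, gave no peak, although its transcript resembles that of YAP1 in build: the last exon of WWTR1 is 3755 nt long, and 21.6% of the 101-nt windows of its transcript hold a GGAC, compared with 18.4% for YAP1. The proteins were identical at 56.4% of 381 aligned positions.

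LATS1 and LATS2 encode the kinases that phosphorylate YAP and TAZ, and they held the highest values in this order. Each had 4 exonic peaks in replicate 1, and all of these were shared. In both genes and both replicates the CDS summits lay in exons 2, 4, 5 and 8, which are the 4 longest of the 8 exons of each transcript, and exons 1, 3, 6 and 7 carried none. Both transcripts have the same number of exons, exons 5, 6 and 7 have equal lengths in both, and the proteins share 58.4% of 1042 aligned positions.

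In LATS1, whose gene lies on chromosome 6, the exon 2 peak had fold enrichments of 3.98 and 5.14 in replicates 1 and 2. The exon 4 peak had 7.59 and 6.61, and the exon 5 peak 6.39 and 7.46. The peak at the 5′ part of the last exon, exon 8, had 7.50 and 12.7. This exon 8 peak reached percentile 98.3 of all peaks in replicate 2 but only 74.9 in replicate 1, and its summits lay 389 and 346 nt before the stop codon, outside the 200-nt window. In 3 of the 4 LATS1 peaks the value was higher in replicate 2, with log2 ratios of replicate 1 to replicate 2 of −0.37 for exon 2, −0.22 for exon 5 and −0.76 for exon 8, whereas exon 4 had 0.20. Across all 10853 shared exonic peaks, replicate 1 was higher in 80.6%, with a median log2 ratio of 0.44.

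LATS2, on chromosome 13, ran the other way, with all 4 shared peaks higher in replicate 1. The exon 2 peak had a fold enrichment of 17.9 and 6.54, the exon 4 peak 17.2 and 8.02, and the exon 5 peak 14.4 and 5.37. These 3 values of replicate 1 lay above percentile 96 of that list, at 98.9, 98.7 and 96.9, whereas the replicate 2 values were at 75.5, 87.9 and 57.1. The exon 8 peak was alike in both, at 6.34 and 5.66, with summits 216 and 233 nt before the stop codon. The log2 ratios were 1.45, 1.10, 1.43 and 0.16, so the rank of LATS2 above LATS1 held in replicate 1 and not in replicate 2, where the highest LATS1 value was 12.7 and the highest LATS2 value 8.02. Replicate 2 split the wide exon 8 region, with a second peak of 3.93 whose summit lay 128 nt after the stop codon and which overlapped the same replicate 1 peak. Replicate 2 alone also had a LATS2 intronic peak of 6.44 with no overlap in replicate 1.

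**Figure D2:**
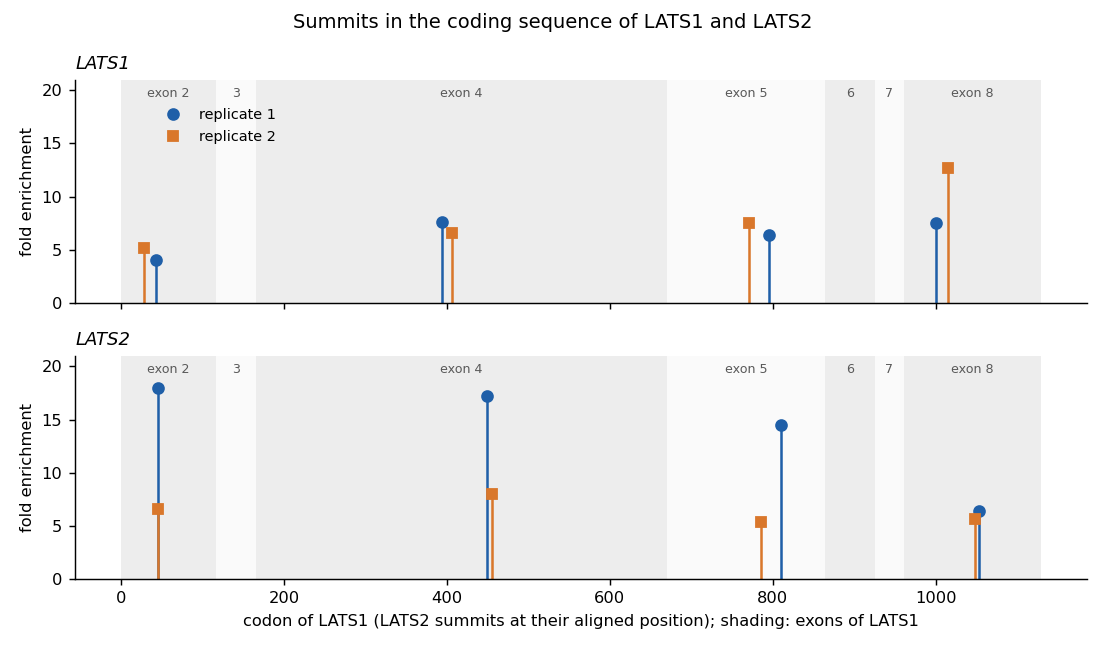
Fold enrichment (linear scale) of the CDS summits of LATS1 and LATS2 in both replicates against the codon of LATS1, with LATS2 summits drawn at their aligned position and LATS1 exons shaded. In each replicate both genes had 1 CDS summit in each of exons 2, 4, 5 and 8. The distances of 9 to 53 codons given in the text are counted in LATS2 codons. They differ from those drawn here where the alignment has gaps.

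The distances between LATS1 and LATS2 summits were also measured on the protein alignment. Because the summits lay in the same exons these distances are limited, and no expected distance was computed. For the 8 LATS1 summits, the nearest LATS2 summit of the same replicate was in the same exon number in 8. Counted in LATS2 codons, it was 9 to 53 codons away with a median of 27.5. A meRIP peak marks a region of about the fragment length, so these distances do not place a methylated base. The peaks of LATS2 exons 2 and 4 and of LATS1 exon 8, which had the highest fold enrichments beside LATS2 exon 5, are shown as 101 nt around the replicate 1 summit, together with LATS1 exon 4 as the counterpart of LATS2 exon 4. All lie in the CDS, are written 5′ to 3′ on the minus strand of hg38 and have GGAC in capitals.
LATS1 exon 4, chr6:149683858-149683958: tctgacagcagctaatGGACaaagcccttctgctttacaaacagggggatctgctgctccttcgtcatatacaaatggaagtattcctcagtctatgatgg
LATS1 exon 8, chr6:149662070-149662170: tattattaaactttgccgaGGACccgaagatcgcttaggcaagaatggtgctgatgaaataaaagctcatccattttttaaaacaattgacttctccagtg
LATS2 exon 2, chr13:21045857-21045957: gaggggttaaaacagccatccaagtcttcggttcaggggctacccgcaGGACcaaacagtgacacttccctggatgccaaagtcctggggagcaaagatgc
LATS2 exon 4, chr13:20988572-20988672: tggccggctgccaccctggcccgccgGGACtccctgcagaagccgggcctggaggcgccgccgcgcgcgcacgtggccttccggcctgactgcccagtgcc

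In LATS2 exon 2, the GGAC adenosine coincided with the replicate 1 summit and lay 8 nt from that of replicate 2. The exon 4 windows differed in base composition, with a GC content of 45.5% in LATS1 and 79.2% in LATS2. Exon 5 is 583 nt long in both genes. Counted in LATS2 codons, its summits were 15 codons apart in both replicates, compared with 9 and 22 codons for exon 2. The exon 2 values depend on the scale. In LATS1 codons, the LATS1 and LATS2 summits of exon 2 stood at 43 and 45 in replicate 1 and at 28 and 45 in replicate 2. The CDS of LATS1 holds 14 GGAC and that of LATS2 25, and 4 of them stood at the same aligned codon position. One of these lies in exon 5 at codon 782 of LATS1 and codon 745 of LATS2. Its distance to the summit was 35 and 36 nt in LATS1 (replicates 1 and 2) and 82 and 9 nt in LATS2. The 60 nt around this GGAC are shown for both genes on the minus strand, since it is the aligned GGAC nearest to summits of both; LATS2 has a second GGAC further on where LATS1 has none.
LATS1 exon 5, chr6:149680080-149680139: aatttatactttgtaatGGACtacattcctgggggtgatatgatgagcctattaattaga
LATS2 exon 5, chr13:20983429-20983488: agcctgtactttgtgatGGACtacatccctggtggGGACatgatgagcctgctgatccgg

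LATS2 had the highest geometric mean of the 10 genes, 11.8 for its exon 4 peak. Among 2419 other genes whose best shared exonic peak lay in the CDS, the 3 closest to LATS2 in log2 fold enrichment over the 2 replicates were ZFP62 with 17.4 and 7.88, ANKS4B with 16.8 and 8.02, and GPANK1 with 16.6 and 7.93. Their distances were 0.03, 0.03 and 0.06 on the log2 scale.

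TEAD1 was the only TEAD gene with exonic peaks in both replicates, and its shared peaks lay in the 5′ UTR and in the last exon. TEAD factors bind DNA and recruit YAP or TAZ. The highest peak was in exon 1, in the 5′ UTR, with fold enrichments of 14.5 and 5.37 in replicates 1 and 2 and summits 86 and 144 nt from the transcript start. A second 5′ UTR peak, in exon 2, had 3.62 and 3.55. The exon 1 windows had no GGAC within 50 nt of either summit and a GC content of 79.2% and 77.2%. Replicate 1 alone had a peak at the start codon in exon 3, with a fold enrichment of 4.59.

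The other shared TEAD1 peaks lay in exon 13, the last exon, which is 7629 nt long and the longest exon of the 10 genes. The first had a fold enrichment of 5.42 and 5.60 with summits 17 and 24 nt after the stop codon. It stood near the middle of both lists, at percentiles 51.9 and 60.4. The second lay deep in the 3′ UTR, 5208 and 5246 nt after the stop codon, with 4.79 and 3.50. Both had a GGAC within 50 nt of the summit in each replicate. The 28-nt stretches around that GGAC are shown 5′ to 3′ on the plus strand with GGAC in capitals. In the first, the GGAC adenosine is 2 nt before the first base of the stop codon. Whether the GGAC shown are methylated was not tested.
TEAD1 stop codon, exon 13, hg38 chr11:12937204-12937231: caggcttgtaaaGGACtgaacatggtta
TEAD1 3′ UTR, exon 13, hg38 chr11:12942431-12942458: acttcagcggaaGGACcccagaaactgt

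The remaining TEAD genes had exonic summits of low fold enrichment or no exonic summit. TEAD3 had 2 peaks in replicate 1 only. One, in the 5′ UTR 114 nt from the transcript start, had a fold enrichment of 3.58 and −log10 q of 5.51, and the other, in the 3′ UTR, had 2.61 and 1.84. TEAD2 gave none, and the proteins of TEAD2, TEAD3 and TEAD4 were identical to TEAD1 at 70.2%, 72.9% and 76.7% of aligned positions. Inside the body of TEAD4 the only summit was intronic, in replicate 1, with 4.52 and −log10 q of 6.31. However, a strong peak of each replicate straddled the annotated 3′ end of TEAD4. In replicate 1 it spanned chr12:3040219-3041245 with a fold enrichment of 10.6 and −log10 q of 35.0, and in replicate 2 chr12:3040261-3041096 with 6.74 and 22.2. The summits lay 179 and 217 bp past the gene end at position 3040676, in no annotated gene, although the peaks overlapped TEAD4 exons by 353 and 312 bp and covered its stop codon. When any overlap of a peak with an exon was counted instead of the summit, TEAD4 became the 7th gene with a peak in both replicates. The lists carry no strand, so whether this signal belongs to TEAD4 RNA was not tested. TEAD4 has a short annotated 3′ UTR of 198 nt, no exon of 400 nt or more, and the largest share of 101-nt transcript windows with a GGAC, 59.9%.

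The angiomotins bind YAP and tether it outside the nucleus. AMOT, on the X chromosome, had its clearest peak in exon 4, a CDS exon of 934 nt. Fold enrichment was 5.87 and 6.91, with −log10 q of 37.4 and 49.0, and the summits were 3 bp apart. The window held 3 GGAC, the most of any shared peak of these genes, and codons 138 to 171 are shown for that reason, 5′ to 3′ on the minus strand. The second shared AMOT peak, in exon 14 after the stop codon, had 5.95 and 3.53 with summits 172 and 163 nt after it. The 28 nt around the GGAC nearest to its summits are also given.
AMOT exon 4, hg38 chrX:112822614-112822714: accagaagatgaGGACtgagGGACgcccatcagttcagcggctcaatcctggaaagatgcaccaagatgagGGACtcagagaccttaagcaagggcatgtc
AMOT 3′ UTR, exon 14, hg38 chrX:112778432-112778459: tgttttttaacaGGACtttttattggaa

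The 3 AMOT peaks found in replicate 1 alone were low, with fold enrichments of 2.89 in the 5′ UTR, 2.45 in exon 5 and 2.80 in exon 13. All 3 were at or below percentile 10.6 of that list, whereas its shared peaks stood near the middle, at 58.6 and 59.6.

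AMOTL2 carried 6 peaks in its exons in replicate 1, compared with 4 in replicate 2, and all 4 shared peaks were higher in replicate 1. The long CDS exon 2, of 795 nt, had a fold enrichment of 6.75 and 4.74 with summits 1 bp apart. The exon 1 peak, in the 5′ UTR, had 6.53 and 2.33. On either side of the last junction, exon 9 had 9.99 and 4.67 and exon 10 had 5.17 and 3.66. These neighbouring summits were 920 and 941 bp apart on the genome but only 144 and 165 nt apart on the spliced transcript, at 65 and 68 nt before and 79 and 97 nt after the stop codon, so whether they are separate methylated regions cannot be told apart from 1 region divided by the intron. Replicate 1 alone had peaks of 6.07 in exon 3 and 3.86 in exon 7. Stretches of 28 nt from the exon 2 and exon 10 peaks, with the GGAC nearest to the replicate 1 summit in capitals, are shown on the minus strand. That GGAC lay 56 and 58 nt from the summit, just outside the 50-nt window.
AMOTL2 exon 2, CDS, hg38 chr3:134371236-134371263: cctggccccagaGGACagtcaggtgctg
AMOTL2 exon 10, 3′ UTR, hg38 chr3:134357673-134357700: ggtggtgcttcaGGACtctgagccattc

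AMOT and AMOTL2, identical at 49.0% of aligned positions, also had a shared CDS peak in a long exon near the start of the protein. Counted in AMOTL2 codons on the alignment, the AMOT exon 4 and AMOTL2 exon 2 summits were 58 codons apart in replicate 1 and 59 in replicate 2. Other CDS summits of replicate 1 stood closer, at 9 codons for AMOT exon 5 and AMOTL2 exon 3 and 21 for AMOT exon 13 and AMOTL2 exon 9. These AMOT peaks were not shared, and no expected distance was computed.

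Together the 10 genes held 28 exonic summits of replicate 1 and 20 of replicate 2. Of the replicate 1 peaks 19 overlapped a peak of replicate 2 (67.9%, beside 60.6% of all exonic peaks), and of the replicate 2 peaks all 20 overlapped one of replicate 1 (beside 95.9%). None of the 3 intronic peaks did, and no share over all intronic peaks was computed. In the 57 further pathway genes counted below, 3 of 14 intronic peaks of replicate 1 and 4 of 15 of replicate 2 were shared. The exonic peaks formed 19 one-to-one pairs, with summits 1 to 73 bp apart and a median of 32 bp, compared with 26 bp over all exonic pairs. Replicate 1 was higher in 14 of the 19 pairs, and the median log2 ratio was 0.45, close to the 0.44 of all pairs. The median fold enrichment of the exonic summits was 5.65 and 5.25, beside 5.18 and 4.69 over all exonic summits of protein-coding genes on their transcripts.

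**Figure D3:**
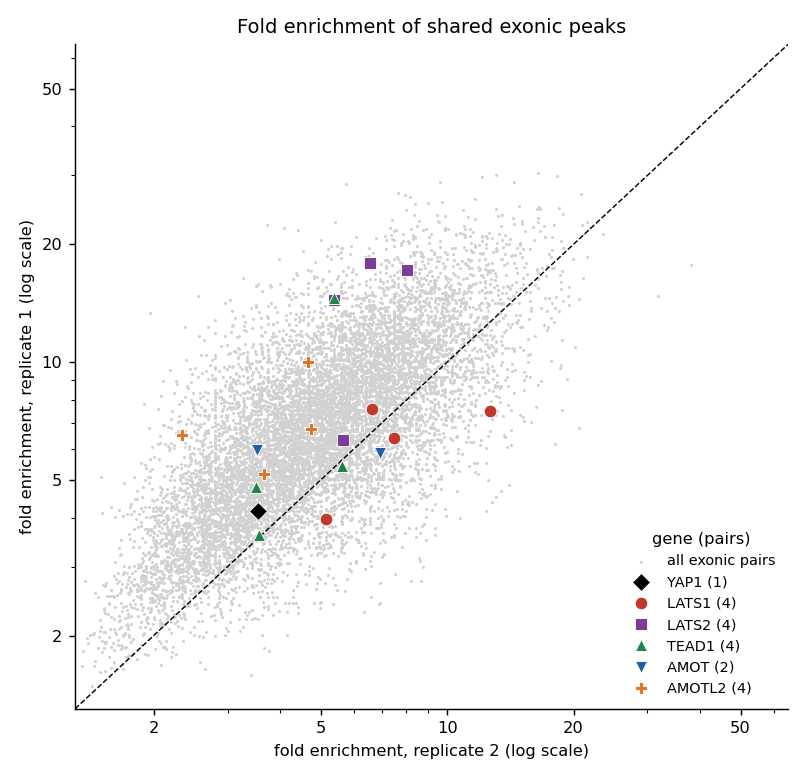
Fold enrichment of shared exonic peaks in replicate 1 against replicate 2 (log scales), with the 19 pairs of the Hippo pathway genes as symbols by gene and all 10853 exonic pairs in grey; the dashed line marks equal values. All 4 LATS2 and all 4 AMOTL2 pairs lie above the line, and 3 of the 4 LATS1 pairs lie below it.

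About as large a share of the summits lay in the CDS as over all protein-coding genes. In replicate 1, 15 of 28 were in the CDS, 5 within 200 nt of the stop codon, 6 in the 5′ UTR and 2 in the 3′ UTR. In replicate 2 the counts were 10, 6, 3 and 1 of 20. The CDS thus took 53.6% and 50% of the summits, and 47.0% and 46.2% over all protein-coding genes. The 5′ UTR took 21.4% and 15%, beside 9.11% and 5.71%. The stop codon window took 17.9% and 30% of the summits of these genes, and 24.6% and 27.2% over all protein-coding genes. The 3′ UTR beyond the window took 7.14% and 5%, compared with 19.2% and 20.9% over all genes, even though TEAD1, AMOT, YAP1, WWTR1 and LATS1 have 3′ UTRs of 3484 to 7515 nt.

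Long exons nearly all held a summit in the genes with peaks in both replicates. Those genes were kept because they had a peak, so this is not a share for all 10 genes. Outside them, WWTR1 exons 2 (434 nt) and 7 (3755 nt) and TEAD2 exon 13 (843 nt) held no summit in either list. TEAD3 exon 13 (1561 nt) held a summit in replicate 1 only. In the 6 genes with peaks in both replicates, 18 of 18 exons of 400 nt or more held a summit in replicate 1 and 15 in replicate 2, the exceptions being YAP1 exon 1 and AMOT exons 5 and 13. Of the 44 shorter exons, 7 held one in replicate 1 and 3 in replicate 2. The corresponding shares were 100% and 83.3% for long exons and 15.9% and 6.82% for short exons. Over the exons of all 6686 protein-coding genes with exonic peaks in both replicates, they were 83.2% and 76.2% for long exons and 5.46% and 1.86% for short exons, so the contrast is not particular to the pathway. A longer exon offers more positions for a summit, and the shares were not adjusted for length.

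GGAC on the strand of the gene was found within 50 nt of 13 of 28 summits in replicate 1 (46.4%) and 12 of 20 in replicate 2 (60%), compared with 50.7% and 52.2% of all summits of protein-coding genes. Along the whole transcripts of the 7 genes with an exonic summit, TEAD3 included, from 18.4% (YAP1) to 45.7% (LATS2) of 101-nt windows held a GGAC. The counts for these genes rest on few summits and moved strongly with the window length.

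Summits at the 5′ end of the transcript differed between the lists. Replicate 1 had a summit within 200 nt of the transcript start in 5 of the 10 genes, namely YAP1, TEAD1, TEAD3, AMOT and AMOTL2, and replicate 2 in TEAD1 and AMOTL2. These were 5 of 28 summits (17.9%) and 2 of 20 (10%), where 9.38% and 4.13% of the summits of all protein-coding genes lay there. The 3 found in replicate 1 alone had low fold enrichments, of 2.38 for YAP1, 3.58 for TEAD3 and 2.89 for AMOT, whereas those of TEAD1 and AMOTL2 were 14.5 and 6.53 in replicate 1 and 5.37 and 2.33 in replicate 2. Their distance to any GGAC was more than 50 nt in each case. Anti-m6A antibodies are known to bind also m6Am, a related modification next to the cap, and the lists do not separate the marks.

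Lastly, 57 further genes of the pathway were counted by role, from summits in exons alone. An exonic peak was found for 38 of them in replicate 1 and for 28 in replicate 2, all 28 of which were among the 38, so 49.1% had one in both lists. Another 10 had one in replicate 1 only, and 19 had none in an exon. Over all protein-coding genes the shares were 42.4%, 34.1% and 33.4% for replicate 1, replicate 2 and both. No share at matched exon length was computed for the further genes. Several of them, such as FAT1 with 16158 bp of exons, exceed the 10700 bp of the longest core gene. In the upstream kinase module, 7 of 14 genes had peaks in both replicates, with the highest geometric means for WWC3 (a scaffold of the KIBRA family, 8.56 and 7.80), TAOK3 (a kinase that acts on STK3 and STK4, 10.8 and 5.14) and SAV1 (the scaffold of STK3 and STK4, 5.85 and 4.36). WWC1, WWC2 and MAP4K4 had peaks in replicate 1 only, and STK3, MOB1A, MOB1B and FRMD6 had no exonic peak. Of the polarity and cadherin inputs 5 of 8 had peaks in both, led by PARD3 (10.2 and 8.77), CRB3 (11.2 and 4.55) and DLG5 (9.52 and 4.58), and LLGL1 in replicate 1 only.

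Among the inhibitors of the kinases, 5 of 9 genes had peaks in both replicates. The highest were those of LIMD1, a LIM protein that binds LATS (10.4 and 5.99), and of STRN3, a part of the STRIPAK phosphatase complex (9.33 and 4.67). SIKE1 had a peak in replicate 1 only, with 11.7. Of the other binding partners of YAP, TAZ or TEAD, 3 of 8 had peaks in both replicates: the transcription factor genes RUNX2 (12.3 and 6.16) and RUNX1 (7.44 and 5.42) and the phosphatase gene PTPN14. The PTPN14 peak of replicate 1 had 8.33 and overlapped 2 peaks of replicate 2, with 10.7 and 4.67, of which the first had the nearer summit and the second the longer overlap. The share of 37.5% for these partners was near the 33.4% of all protein-coding genes. AMOTL1, the angiomotin gene outside the core list, had 2 peaks in replicate 1 only, with 5.12 in the CDS and 5.06 near the stop codon. VGLL4, a gene for a TEAD cofactor that competes with YAP, also had peaks in replicate 1 only.

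Of the target genes of YAP and TAZ, 8 of 18 (44.4%) had exonic peaks in both replicates, beside the same 33.4%. ARHGEF17 had the highest, in its 3555-nt first exon, with a fold enrichment of 12.3 and 15.1. NUAK2, an AMPK-related kinase gene, had 9.99 and 11.3. CCN2, the matricellular protein gene often used as a readout of YAP, had 8.05 and 9.33 with summits 15 and 0 nt from the stop codon. All 3 of these peaks were higher in replicate 2, the less common direction over all pairs. The other shared peaks of ARHGEF17 (10.8 and 7.16) and NUAK2 (10.8 and 8.87) were higher in replicate 1. CCN1, NT5E and IGFBP3 had peaks in replicate 1 only, and ANKRD1, AXL, TGFB2, F3, FOXF2, MYOF and RBMS3 had no summit in an exon. All 55 exonic peaks of the 57 genes in replicate 2 overlapped a peak of replicate 1, as did 53 of 89 in the other direction.

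**Figure D4:**
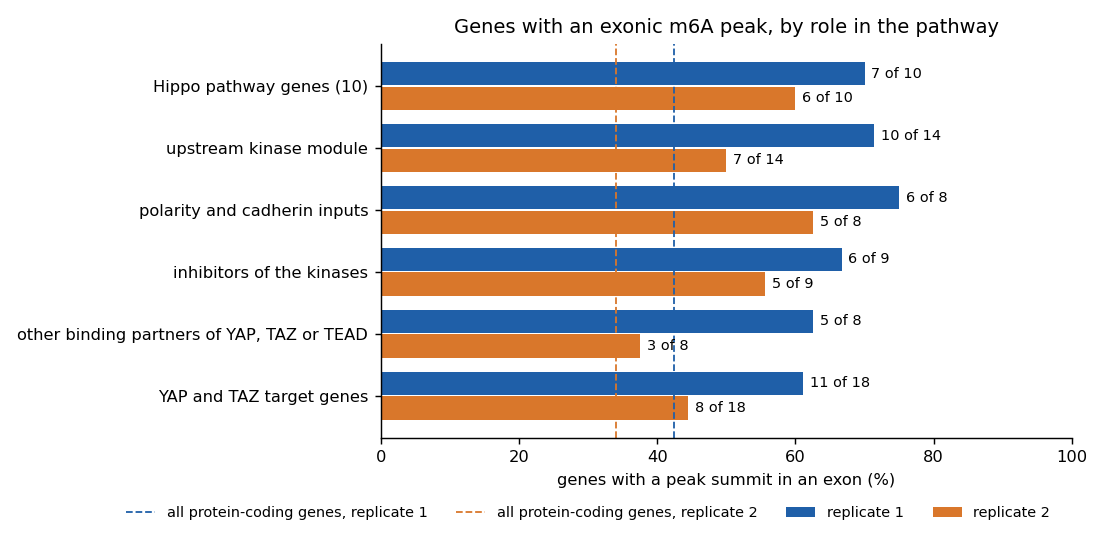
Share of genes (%) with a peak summit in an exon, for the 10 Hippo pathway genes as 1 group and the 57 further genes by role, in replicate 1 and replicate 2, with the number of genes at each bar; dashed lines mark the shares over all protein-coding genes. These 6 groups lie above the line of their replicate, from 37.5% (3 of 8 other binding partners, replicate 2) to 75.0% (6 of 8 polarity and cadherin genes, replicate 1). The lines are not matched for exon length.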

How the data were processed

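Peak lists of 2 m6A IP samples were analysed; lists of the input samples were not analysed here. The submitters' processing notes name fastp, HISAT2, MACS2 and hg38, whereas the methods of the study name TopHat2 and MACS2 with default settings; versions, and whether the input was the control, are not given in the sources used here. The authors deposited for each peak a fold enrichment (a ratio at the summit), −log10 of the p-value and q-value, a summit offset, and a score, which was not used. The highest q was 0.0491 and 0.0497. The lists held 44 and 53 sequence names. All 24 primary chromosome names matched the hg38 FASTA, and 0 peaks ran past an end. The other names were not found in it, and their peaks stayed in the list totals and percentiles.

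Genes came from GENCODE 44, with exon counts over all transcripts of a gene. Transcript positions refer to the MANE Select transcript, or the longest CDS where there was none, and coordinates are 1-based. Peaks overlapping by 1 bp or more were called shared, and pairs were mutual best overlaps. None of the 48 exonic summits of the 10 genes lay in an exon of another gene. Proteins were translated from the transcripts and aligned with Biopython 1.88; Python 3.11.15, numpy 2.4.6, pandas 2.3.3 and matplotlib 3.10.9 were used. Positions, genes and pairing were tested on simulated data.

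The design has 1 group, so values are described without a test. The genes and lists were chosen with earlier results of these data known. Named were all 10 genes, AMOTL1 and, per role, up to 3 genes whose shared exonic peaks had the highest geometric mean and those with a peak in 1 replicate only where there were at most 5; genes without a peak were added afterwards. The values of 1 gene that this rule names are not reported here. Likeness was the distance in log2 fold enrichment. The peaks past the end of TEAD4, the 60-nt stretches and the exon length counts were chosen after the values were seen. Alternatives were stricter q, fold enrichment of 5 or more, peak midpoints, any exon overlap, other overlap rules, and motif and stop codon windows. Further ones were another transcript, the highest peak anywhere in the gene body, and each replicate left out.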

Additional observations from a re-analysis of the deposited data

How the results depend on the processing

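Of 48 alternative values, 42 stayed within 1.5 times the reported one. Among these 42 were 13 best fold enrichments of single genes, taken over the whole gene body. They could change only through an intronic peak, and all 13 were unchanged. The 6 that moved were counts. At a fold enrichment of 5 or more, 16 further pathway genes had a peak in both replicates instead of 28. AMOTL2 and YAP1 then also left the core genes found in both. That count fell from 6 to 4, which lies at the limit of 1.5 times and was not counted as moved. GGAC was found near 8 and 21 of the 28 replicate 1 summits with windows of 25 and 100 nt instead of 13 with 50 nt, and near 6 of the 20 replicate 2 summits with 25 nt instead of 12. The stop codon window of replicate 1 held 3 summits at 100 nt and 8 at 400 nt, instead of 5 at 200 nt. Counting any overlap with an exon added TEAD4 in both replicates. No share over all protein-coding genes is given at a fold enrichment of 5 or for any overlap. The counts at these settings therefore have no background beside them. Stricter q thresholds of 0.01 and 1e-05 changed no count of core genes, although TEAD3 rests on 1 list. Using 1 list alone gave 6 or 7 core genes and 28 or 38 further genes. The use of the transcript with the longest CDS, added after the data were seen, gave the same stop codon counts of 5 and 6. No paired analysis was possible because only the IP samples had peak lists. Peak widths and the caller's background limit what fold enrichment can show, and a missing peak sets no upper limit on m6A.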
